A study of Mus musculus with 4 samples.

Results

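The genes described here are the granzymes, perforin and the other genes of the cytotoxic granule in polarized cultures labelled as CD4+ T cells. They are 10 of the 54752 genes counted in the series and were chosen by name: Gzma, Gzmb, Gzmc, Gzmk and Gzmm encode granzymes, Prf1 encodes perforin, Fasl encodes Fas ligand, Srgn encodes serglycin, and Serpinb9 and Serpinb6b encode intracellular serpins. RNA was sequenced from CD4+ T cells that had been isolated as naïve cells from the spleen and cultured for 3 days under conditions that favor T follicular helper (Tfh) cells, with plate-bound anti-CD3, anti-CD28, IL-6 and neutralizing antibodies to TGF-β, IL-4, IFN-γ and IL-2, and viable cells were sorted before RNA was extracted. The Mek1/2-tKO mice, on a C57BL/6 background, carried Map2k2 fl/fl and Map2k1 fl/fl together with Cd4-Cre, so that Cre under Cd4 control deletes both MEK kinases in cells of the T lineage. Both genotypes went through the same culture. The cultures also differed in the cell type markers they expressed: Cd4, the gene of the labelled cell type, had 297 and 290 CPM in WT and 18.8 and 25.1 CPM in Mek1/2-tKO (CPM is a count scaled to a common library total), and markers of B, NK, CD8+ and gamma-delta T cells were higher in Mek1/2-tKO. Age and sex of the donor mice and the Cre and flox status of the WT mice are not given in the sources used here.

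Killer lymphocytes store granzymes, which are serine proteases, and the pore-forming protein perforin in secretory granules, where both are held on the proteoglycan serglycin. On contact with a target cell the granules are released, perforin opens the way and the granzymes cleave proteins of the target, while Fas ligand on the cell surface triggers death through a separate receptor. Serpins in the cytosol of the killer cell trap granzymes that leak from the granules. CD8+ T cells and NK cells are best known for this equipment, but activated CD4+ T cells can also make parts of it, granzyme B above all, and IL-2 signaling is known to raise its expression.

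There were 2 libraries of each genotype, with 16330802 to 18931090 counts each, of which mitochondrial genes took 1.56 to 1.62% in WT and 1.99 to 2.24% in Mek1/2-tKO. The labels do not say whether libraries of a genotype came from separate mice or cultures, so that the p values measure the spread between these libraries, which may be technical. Of all genes, 14330 had enough counts to be tested with edgeR's quasi-likelihood test. A gene was called when its Benjamini-Hochberg adjusted p was under 0.05 and its fold change was at least 1.5, and 19.3% of the tested genes were called higher and 16.4% lower in Mek1/2-tKO than in WT. Levels are given as normalised counts (CPM), scaled by edgeR's TMM factors, and 3 counts, the limit that a count of 0 allows, equalled 0.154 to 0.194 CPM. Transcripts of Map2k1 were lower in Mek1/2-tKO (log2 fold change -0.86, standard error 0.08, edgeR adjusted p = 1.29e-06), whereas Map2k2 was not called (log2 fold change 0.15, standard error 0.08, edgeR adjusted p = 0.126), and a count over a whole gene does not tell a transcript without its floxed exons from a complete one.

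Of the 10 genes, 9 could be tested, 7 were higher in Mek1/2-tKO and 0 were lower, beside 19.3% higher and 16.4% lower over all tested genes. The 7 were Gzmc, Prf1, Gzma, Gzmb, Srgn, Serpinb9 and Serpinb6b. Fasl and Gzmm did not pass, and Gzmk had too few counts for a test. In all 9 tested genes both Mek1/2-tKO libraries lay above both WT libraries, as they did in 39.5% of all tested genes, with the opposite arrangement in another 38.8%. The median log2 fold change of the 9 genes was 1.34, beside 0.02 over all tested genes. The 10 genes together took 0.236% and 0.227% of all counts in the WT libraries and 0.655% and 0.607% in the Mek1/2-tKO libraries. In a bulk sample, more cells that express a gene and more RNA of it per cell cannot be told apart.

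**Figure D1:**
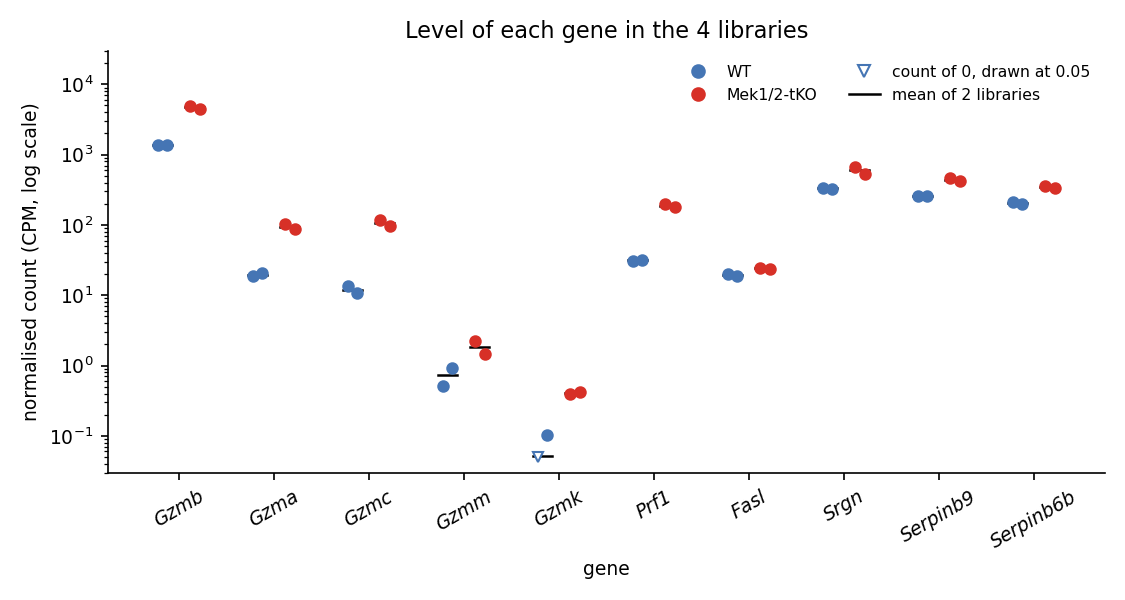
Normalised count of each of the 10 genes in each library (CPM, log axis), with blue points for the 2 WT libraries, red points for the 2 Mek1/2-tKO libraries and a bar at the mean of each genotype. The red points lie above the blue points for all 10 genes, from Gzmb at 1356 to 4986 CPM down to Gzmk, which had no count in 1 WT library.

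The regions just upstream of the granzyme and perforin genes are shown because the genes that rose most lie among them, and because they let a reader see which letters the genes share. Each line runs from 250 bases before to 50 bases after a start site of RefSeq on GRCm38.p6, 5′ to 3′ on the strand of the gene. Capitals mark matches, on either strand, to the letters searched for 5 kinds of site (AP-1, RUNX, T-box, STAT and TATA box), which are spelled out after the sequences. Gzmb lies at chr14:56262285-56262584, Gzmc at chr14:56234608-56234907, Gzmd at chr14:56132544-56132843 and Gzma at chr13:113100932-113101231, all on the minus strand, and Prf1 at chr10:61297586-61297885 on the plus strand.
Gzmb: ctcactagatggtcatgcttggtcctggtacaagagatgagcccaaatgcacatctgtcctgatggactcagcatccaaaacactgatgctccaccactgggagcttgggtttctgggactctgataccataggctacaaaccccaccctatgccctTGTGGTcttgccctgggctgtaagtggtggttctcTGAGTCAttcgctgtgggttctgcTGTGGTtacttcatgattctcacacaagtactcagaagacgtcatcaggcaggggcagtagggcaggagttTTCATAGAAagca
Gzmc: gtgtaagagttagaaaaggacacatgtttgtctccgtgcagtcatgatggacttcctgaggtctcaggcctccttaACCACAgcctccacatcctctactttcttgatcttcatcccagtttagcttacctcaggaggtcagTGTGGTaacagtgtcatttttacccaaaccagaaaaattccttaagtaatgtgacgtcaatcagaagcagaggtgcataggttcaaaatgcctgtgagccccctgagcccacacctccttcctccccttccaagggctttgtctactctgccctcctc
Gzmd: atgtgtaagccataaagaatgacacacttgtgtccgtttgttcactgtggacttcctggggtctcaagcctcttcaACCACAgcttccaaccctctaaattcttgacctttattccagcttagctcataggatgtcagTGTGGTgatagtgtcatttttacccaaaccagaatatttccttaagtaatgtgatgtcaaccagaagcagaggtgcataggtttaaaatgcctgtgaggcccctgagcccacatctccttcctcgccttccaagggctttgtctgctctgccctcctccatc
Gzma: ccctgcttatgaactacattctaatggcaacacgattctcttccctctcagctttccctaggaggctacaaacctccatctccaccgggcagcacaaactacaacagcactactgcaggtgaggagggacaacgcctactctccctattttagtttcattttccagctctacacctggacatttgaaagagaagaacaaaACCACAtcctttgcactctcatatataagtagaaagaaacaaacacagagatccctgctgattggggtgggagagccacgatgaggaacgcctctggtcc
Prf1: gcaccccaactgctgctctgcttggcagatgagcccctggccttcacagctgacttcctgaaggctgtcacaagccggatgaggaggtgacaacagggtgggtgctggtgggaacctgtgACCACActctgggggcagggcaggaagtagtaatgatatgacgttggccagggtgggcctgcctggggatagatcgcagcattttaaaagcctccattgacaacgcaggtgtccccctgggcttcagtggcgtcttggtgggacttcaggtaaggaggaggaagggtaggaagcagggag

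Where a gene had a second window, as Gzmm and Srgn did, the first was read. The RUNX letters, TGTGGT, were found in the first windows of 6 of the 10 genes (Gzma, Gzmb, Gzmc, Gzmm, Prf1 and Serpinb9), and in 16.8% of all 32851 promoter windows. They were also in the second window of Srgn. Positions are those of the first base of a match, counted from the start site. In Gzmb the RUNX letters stood at -93 and -34, and Gzmb alone of the 10 genes also held the AP-1 letters, TGANTCA, at -58. They are in 7.81% of all windows. Gzmc carried the RUNX letters at -174 on the opposite strand and at -108, and Gzmd at -174 and -112 in the same orientations. Windows not shown held the same pair in Gzme (-175 and -113), Gzmf (-195 and -133) and Gzmg (-190 and -128). Gzmf and Gzmg were too rare to test, so that the pair is not particular to the genes that rose. Gzma had a single RUNX match at -50 and Prf1 at -130. The STAT letters, TTCNNNGAA, were in Gzmb (at 38) and Gzmm (at -86) and in 8.30% of all windows. Among the first windows of the 10 genes, the T-box letters, GGTGTGA, were in that of Gzmk alone (at -75). They were also in the second window of Gzmm (at -189) and in 3.98% of all windows. The TATA letters, TATAAA, were in Srgn alone (at -98) and in 13.6% of all windows. No match of one kind overlapped one of another kind in the sequences shown. Such a match is a run of letters and not a measured binding site, and the RefSeq start does not always coincide with the first base of the gene in the deposited annotation. For Gzmb they are 74 bases apart, for Serpinb9 1291 bases and for Gzmk 44943 bases, so that the matches of Serpinb9 and Gzmk belong to windows inside the annotated genes.

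Gzmb encodes granzyme B, the protease that cleaves after aspartate and activates caspases. It was by far the most abundant of these genes (chromosome 14, 56258838 to 56262260, minus strand, GRCm38), with 1384 and 1356 CPM in WT and 4986 and 4440 CPM in Mek1/2-tKO. Both Mek1/2-tKO libraries were thus high, and WT cells also had this transcript in abundance. The mean was 1370 ± 20.1 CPM for WT and 4713 ± 386 for Mek1/2-tKO (SD of 2 libraries), and the rise was 3.44-fold (log2 fold change 1.78, standard error 0.08, edgeR adjusted p = 1.18e-09). Per kb of exon, Gzmb stood in place 94 and 95 of all genes in the WT libraries and in place 34 and 33 in the Mek1/2-tKO libraries. A log2 fold change larger than that of Gzmb was seen in 7.45% of all tested genes.

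Gzmc encodes granzyme C, the neighbor of granzyme B in the same cluster, and showed the largest change of the tested genes of the group. It lies 24.2 kb from Gzmb (chromosome 14, 56231441 to 56234656, minus strand) and had 13.5 and 10.6 CPM in WT against 116 and 96.1 CPM in Mek1/2-tKO. The rise was 8.79-fold (log2 fold change 3.14, standard error 0.14, edgeR adjusted p = 6.85e-10), and 2.55% of all tested genes had a larger log2 fold change. The coding sequences of Gzmb and Gzmc were 76.6% identical, yet no stretch of 75 bases in a transcript of either gene occurs in a transcript of another gene, so that uniquely mapped reads can tell them apart.

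Gzma encodes granzyme A, a protease that cleaves after basic residues. Its level was 18.8 and 20.4 CPM in WT against 102 and 87.3 CPM in Mek1/2-tKO, again with no overlap. The change was 4.83-fold (log2 fold change 2.27, standard error 0.12, edgeR adjusted p = 3.03e-09), and 5.41% of all tested genes had a larger one. Gzma lies on chromosome 13 (113093825 to 113100981, minus strand), 70.6 kb from Gzmk, which encodes the related granzyme K. Gzmk was nearly silent, with 0 and 2 counts in the WT libraries and 6 and 8 counts in the Mek1/2-tKO libraries. These are 0 and 0.104 CPM against 0.388 and 0.426 CPM. Both WT libraries were below the limit of 3 counts, and Gzmk was not tested.

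Gzmm encodes granzyme M, a protease best known from NK cells, and lies on chromosome 10 away from the other granzymes (79689020 to 79695261, plus strand). It had 10 and 18 counts in WT and 35 and 27 counts in Mek1/2-tKO. As CPM these were 0.513 and 0.934 against 2.26 and 1.44. The groups did not overlap, but the log2 fold change of 1.34 had a standard error of 0.57 and did not pass (edgeR adjusted p = 0.0616). It passed only when the test was restricted to genes with at least 10 counts in every library (edgeR adjusted p = 0.0213), a setting that Gzmm meets exactly with its lowest library.

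The granzyme signal as a whole rose, while its make-up stayed dominated by Gzmb. Summed over the 10 granzyme genes, it was 1418 and 1390 CPM in WT and 5214 and 4630 CPM in Mek1/2-tKO, a ratio of means of 3.51. An exact two-sided permutation test gave p = 0.3333, the smallest that 2 libraries against 2 allow. Gzmb made up 96.5% and 96.4% of the granzyme signal per kb in the WT libraries and 93.5% and 93.9% in the Mek1/2-tKO libraries. The share of Gzmc went from 1.51% and 1.21% to 3.49% and 3.27%, and that of Gzma from 1.87% and 2.07% to 2.74% and 2.64%.

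The remaining granzymes of the chromosome 14 cluster are Gzmd, Gzme, Gzmf, Gzmg and Gzmn, and they were all rare. Gzmd had 8 and 23 counts in WT and 72 and 29 counts in Mek1/2-tKO, so that its Mek1/2-tKO libraries differed widely (0.411 and 1.19 against 4.65 and 1.54 CPM). It was called higher (log2 fold change 1.93, standard error 0.61, edgeR adjusted p = 0.0166). Gzme rose from 2 and 8 counts to 42 and 40 counts (log2 fold change 3.19, standard error 0.67, edgeR adjusted p = 0.00111). The coding sequences of Gzmd and Gzme are 94.8% identical and they share 5.73% and 4.75% of their 75-base stretches with other transcripts, so that the split of reads between them is uncertain. With the library of Mek1/2-tKO replicate 1 or of WT replicate 1 left out, 1 of the 2 calls was lost. Gzmf (4 and 6 against 4 and 12 counts) and Gzmg (0 and 4 against 2 and 3 counts) were too rare to test, and Gzmn had no count in any library. All 7 granzymes of the cluster lie on the minus strand within 142 kb of the first base of Gzmb. The highest value of any granzyme of the cluster other than Gzmb and Gzmc was 4.82 CPM per kb.

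**Figure D2:**
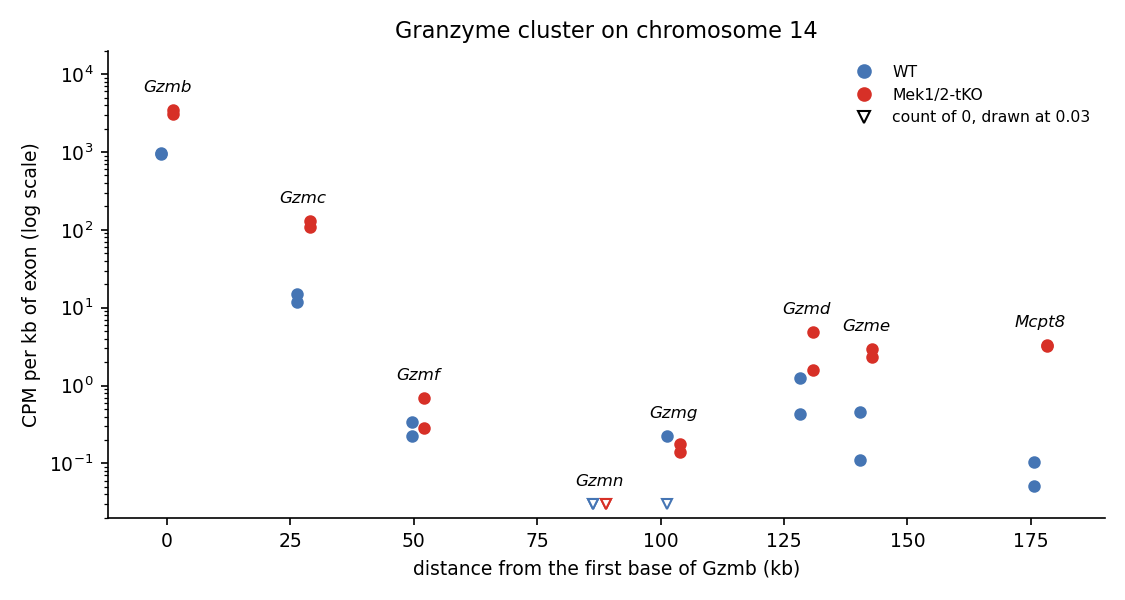
Level of the granzymes of the chromosome 14 cluster and of Mcpt8 against the distance of each gene from the first base of Gzmb (kb). Mcpt8 is a neighboring protease gene from the mast cell and basophil list. Levels are CPM per kb of exon on a log axis, in 2 WT (blue) and 2 Mek1/2-tKO (red) libraries. Gzmb and Gzmc, 27.6 kb apart by this measure, stand above the others, while Gzmf, Gzmn and Gzmg between Gzmc and Gzmd lie below 1 CPM per kb.

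Prf1 encodes perforin, without which granzymes do not reach their targets efficiently. It rose from 31.1 and 31.9 CPM in WT to 197 and 178 CPM in Mek1/2-tKO. The WT libraries were nearly equal (31.5 ± 0.565 CPM, SD, n = 2) and both Mek1/2-tKO libraries were far above them. The 5.94-fold change (log2 fold change 2.57, standard error 0.10, edgeR adjusted p = 1.21e-10) was exceeded by 4.12% of all tested genes. Prf1 lies on chromosome 10 (61297833 to 61304680, plus strand), 1189 kb from Srgn.

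Srgn encodes serglycin, the proteoglycan core on which granzymes and perforin are stored. Its levels were 340 and 322 CPM in WT and 662 and 537 CPM in Mek1/2-tKO. The Mek1/2-tKO libraries differed more between themselves than the WT libraries did, and both were above WT. The change was 1.81-fold (log2 fold change 0.86, standard error 0.09, edgeR adjusted p = 4.73e-06).

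The serpin genes rose by a similar, smaller step. Serpinb9 encodes the cytosolic inhibitor of granzyme B and had 260 and 255 CPM in WT and 458 and 421 CPM in Mek1/2-tKO (log2 fold change 0.77, standard error 0.08, edgeR adjusted p = 1.64e-06). Serpinb6b, a related intracellular serpin gene, had 215 and 201 CPM in WT and 361 and 337 CPM in Mek1/2-tKO (log2 fold change 0.74, standard error 0.08, edgeR adjusted p = 2.63e-06). In both genes the genotypes did not overlap. They are neighbors on chromosome 13, 24.2 kb apart and both on the plus strand, and their coding sequences are 68.5% identical with no shared stretch of 75 bases. Both are under a fold change of 2, as is Srgn, so that 4 of the genes (Gzmb, Gzma, Gzmc and Prf1) would be called at that threshold.

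Fasl encodes the ligand of the death receptor Fas and is the only gene of the group that kills without the granule. It had 20.0 and 18.9 CPM in WT and 24.6 and 23.6 CPM in Mek1/2-tKO. The Mek1/2-tKO libraries were higher by a small margin, and the log2 fold change of 0.31 (standard error 0.14, edgeR adjusted p = 0.0709) did not pass. Under all other settings and with each library left out it lay between 0.22 and 0.34. A larger log2 fold change was seen in 35.0% of all tested genes.

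**Figure D3:**
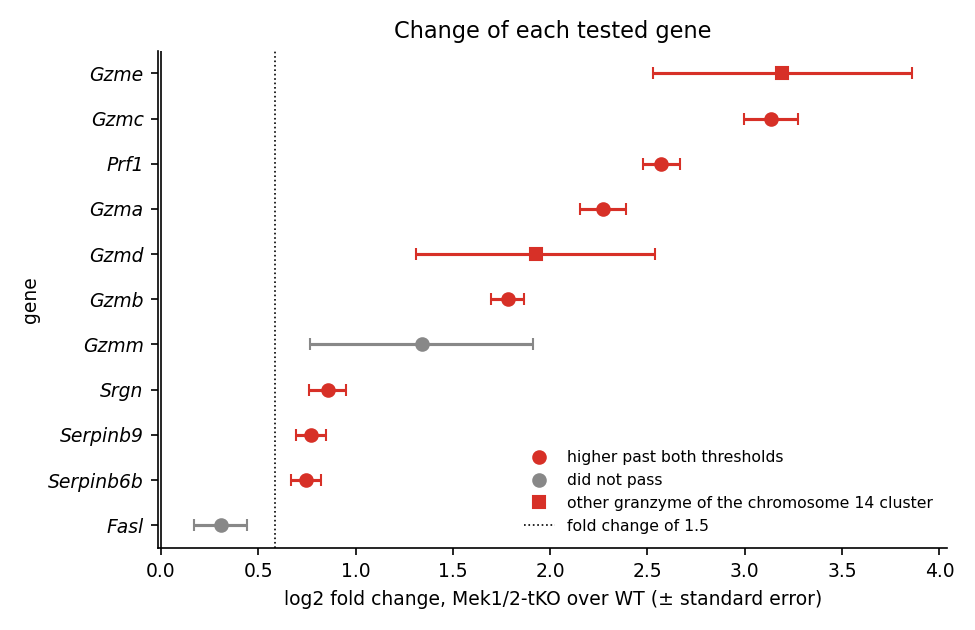
Log2 fold change of Mek1/2-tKO over WT for the 9 tested genes of the group (circles) and for Gzmd and Gzme (squares), with standard errors as bars, and a dotted line at a fold change of 1.5. Gzmc, Prf1, Gzma and Gzmb lie between 1.78 and 3.14 with narrow bars, Srgn and the serpin genes between 0.74 and 0.86, and Gzmm and Fasl (gray) did not pass.

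Compared per kb of exon, the order of the genes in WT was Gzmb (964 and 944 CPM per kb), Srgn (151 ± 5.59, mean ± SD, n = 2, as for the genes that follow), Serpinb6b (92.1 ± 4.43), Serpinb9 (73.6 ± 1.05), Gzma (19.5 ± 1.12), Gzmc (13.5 ± 2.23), Prf1 (12.2 ± 0.212), Fasl (10.1 ± 0.393), Gzmm (0.491 ± 0.202) and Gzmk (0.037 ± 0.053). Gzmc and Prf1 did not differ beyond their spread in WT. In Mek1/2-tKO the order was Gzmb (3282 ± 269 CPM per kb, SD, n = 2), Srgn (273 ± 40.2), Serpinb6b (154 ± 7.43), Serpinb9 (126 ± 7.64), Gzmc (119 ± 15.6), Gzma (94.3 ± 10.6), Prf1 (72.5 ± 5.28), Fasl (12.5 ± 0.375), Gzmm (1.26 ± 0.395) and Gzmk (0.293 ± 0.020). Only Gzma and Gzmc changed places. Serpinb9 and Gzmc were not apart in Mek1/2-tKO, where Gzmc ranged from 108 to 130 and Serpinb9 from 120 to 131 CPM per kb. Fasl, close to Prf1 in WT, was well below it in Mek1/2-tKO.

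The balance of the genes against Gzmb in the same library therefore shifted. Prf1, Gzmc and Gzma gained on Gzmb: the log2 ratio of Prf1 to Gzmb, both as CPM per kb, was -6.32 and -6.26 in WT and -5.51 and -5.49 in Mek1/2-tKO, and that of Gzmc went from -6.00 and -6.31 to -4.75 and -4.85. The storage and inhibitor genes lost ground to Gzmb. The log2 ratio of Srgn to Gzmb was -2.64 and -2.69 in WT and -3.53 and -3.66 in Mek1/2-tKO, and the ratio of Serpinb9, the inhibitor of granzyme B, to Gzmb itself fell by 1.01 on the log2 scale. For Fasl the shift was -1.47. In each of the 7 genes compared the ratios of the genotypes were apart, with shifts that ran from -1.47 to 1.36, and they are given as a description without a test. From the fitted log2 fold changes, with the genes treated as independent, Gzmc exceeded Gzmb by 1.35 (standard error 0.16), Serpinb9 lay below Gzmb by a difference of -1.01 (standard error 0.11), and for the rare Gzmm the difference was -0.44 (standard error 0.58).

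**Figure D4:**
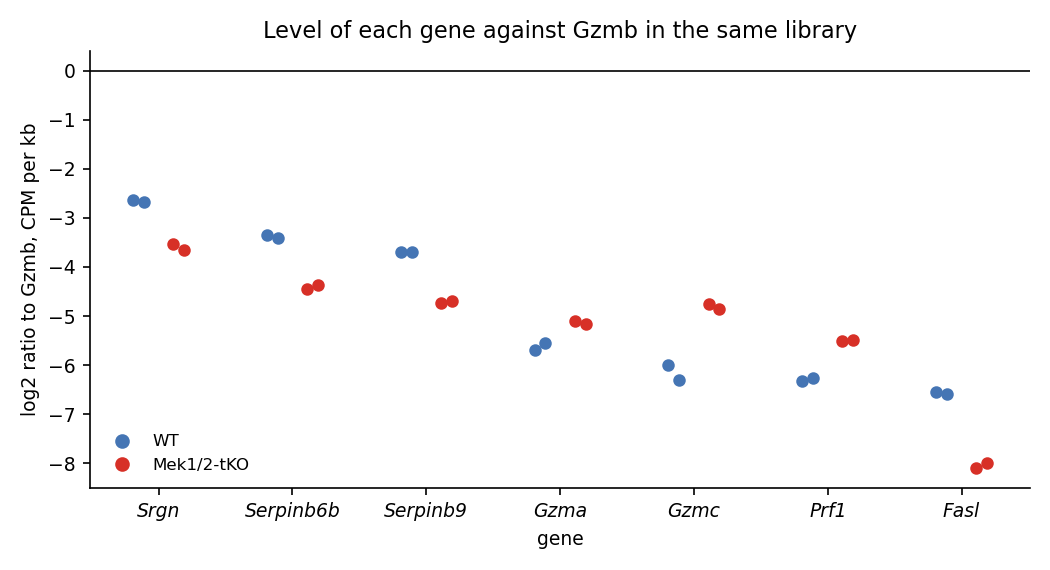
Log2 ratio of 7 genes to Gzmb within each library, both as CPM per kb of exon, 2 WT (blue) and 2 Mek1/2-tKO (red) libraries. The red points lie above the blue points for Gzma, Gzmc and Prf1 and below them for Srgn, Serpinb6b, Serpinb9 and Fasl, and all points are below 0 because Gzmb was the most abundant of these genes in each library.

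The genes outside the group whose log2 CPM profile over the 4 libraries was most like that of Gzmb were S100a10 (distance 0.040 on the log2 scale), Lta, which encodes lymphotoxin alpha (0.061), and Cmtm7 (0.066). For Prf1 they were Igkv10-96, a variable segment of the immunoglobulin kappa light chain (0.064), Smim14 (0.086) and Blvrb (0.093). For Srgn they were the mitochondrial mt-Cytb (0.035), Uqcrh, also of the respiratory chain (0.038), and Slc35b1 (0.042). With only 4 libraries, such likeness means little more than a similar fold change.

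The machinery around the granule did not move as one. Of the 18 genes listed for granule transport and exocytosis, 16 were tested, of which 3 were higher and 5 lower, with a median log2 fold change of 0.02. Over all tested genes 19.3% were higher and 16.4% lower, with a median of 0.02. Higher were Cd63, a granule membrane tetraspanin (0.257 and 0.311 against 5.56 and 5.81 CPM, log2 fold change 4.29), Nkg7, a granule membrane protein of killer cells (62.8 and 65.2 against 437 and 405 CPM, log2 fold change 2.72, edgeR adjusted p = 1.46e-11), and Vamp8 (log2 fold change 0.89). Lower were Lyst, the gene mutated in beige mice, whose product governs granule size (log2 fold change -0.94), the kinesin heavy chain gene Kif5b (-0.73), Ap3b1 (-0.71), Slc29a3 (-0.63) and Unc13d, which primes granules for fusion (114 and 119 against 71.3 and 79.8 CPM, log2 fold change -0.63, edgeR adjusted p = 6.79e-05). Rab27a, which docks granules at the membrane, had 64.9 and 62.7 CPM in WT and 57.9 and 63.6 CPM in Mek1/2-tKO, with overlapping ranges. With Mek1/2-tKO replicate 1 left out, 3 in place of 5 genes of this list were lower.

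Granule proteases and their inhibitors moved much more like the granzymes. All 14 listed genes were tested, 12 were higher and 1 was lower, and the median log2 fold change was 1.23. The shares among all tested genes were 19.3% higher and 16.4% lower, with a median of 0.02. Ctsc, which encodes cathepsin C, the enzyme that trims granzymes to their active form, had 114 and 121 CPM in WT and 232 and 215 CPM in Mek1/2-tKO (log2 fold change 0.93, standard error 0.08, edgeR adjusted p = 5.37e-07). Cst7, which encodes cystatin F, an inhibitor of cathepsin C, rose by a log2 fold change of 0.70. The largest changes were those of Serpinb9b (log2 fold change 3.96, at 0.415 to 11.6 CPM), Ctsh (3.40), Ctsw, a cathepsin of cytotoxic cells (11.0 and 10.4 against 95.1 and 91.5 CPM, log2 fold change 3.13), and Serpinb1a (2.71). Ctsb was lower (log2 fold change -0.64), and Calr, whose product calreticulin binds perforin, stayed under the fold threshold (0.44). Serpinb9b is a relative of Serpinb9, but no 75-base stretch of a Serpinb9 transcript occurs in a transcript of another gene.

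On the receiving side, 10 death receptor and caspase genes were tested and 1 was higher and 1 lower, with a median log2 fold change of 0.00. The shares over all tested genes were 19.3% higher and 16.4% lower. Tnfsf10, which encodes the death ligand TRAIL, was higher (11.9 and 12.1 against 29.4 and 32.5 CPM, log2 fold change 1.37, edgeR adjusted p = 2.89e-06), unlike Fasl, although the difference between the 2 ligands was not tested. Cflar, which encodes an inhibitor of caspase 8, was lower (log2 fold change -0.66), and it was among the calls lost when Mek1/2-tKO replicate 1 was left out, when 0 genes of this list were lower.

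Genes that are known to regulate the cytotoxic program went both ways, with 5 of 20 higher, 7 lower and a median log2 fold change of -0.24. All tested genes also went both ways, with 19.3% higher, 16.4% lower and a median of 0.02. Eomes, a T-box factor of killer cells, rose from 21.8 and 16.7 to 65.6 and 61.7 CPM (log2 fold change 1.73, edgeR adjusted p = 1.71e-07). Tbx21, its relative T-bet, had 134 and 136 CPM in WT and 107 and 122 CPM in Mek1/2-tKO and was not called. Higher were also Klf2 (log2 fold change 4.16), Bcl6, the Tfh factor (1.85), Id2 (1.66) and Hopx (1.48). Runx3, which encodes a RUNX factor of CD8+ T cells, was lower (93.6 and 95.5 against 39.4 and 45.0 CPM, log2 fold change -1.16). Of the genes of the IL-2 route, Il2ra (log2 fold change -0.91), Stat5a (-0.90) and Stat5b (-0.96) were lower, whereas Il2rb (-0.25) and Il2rg (0.04, with 30.5% of its exon bases shared with Gm20489 on the same strand) were not called. Il12rb2 (-1.71, with 40.0% of its exon bases overlapped by Serbp1 on the opposite strand), Tcf7 (-1.31) and Notch1 (-1.27) were also lower.

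Markers of other cell types moved together with the granule genes. For the marker lists that follow, the shares over all tested genes were 19.3% higher and 16.4% lower, with a median log2 fold change of 0.02. Among the T-cell identity markers 1 of 12 was higher and 6 were lower, with a median log2 fold change of -0.66 and a fall of Cd4 by 3.73 on the log2 scale (edgeR adjusted p = 2.43e-11). Cd5 (log2 fold change -1.55), Cd2 (-1.22), Cd3e (-1.06), Trac (-0.98) and Cd247 (-0.79) were lower as well. In Cd247, 56.4% of the exon bases are overlapped on the opposite strand. Thy1 was higher (0.83), and Cd3d, Cd3g, Trbc1, Trbc2 and Lck were not called. Both CD8 markers, Cd8a (log2 fold change 2.06) and Cd8b1 (1.53), were higher, with a summed level of 59.3 to 67.4 CPM in WT and 214 to 238 CPM in Mek1/2-tKO. All 13 NK-cell markers were higher, with sums of 39.1 to 43.8 against 256 to 283 CPM and a median log2 fold change of 3.54. The largest changes were those of Klra8 (log2 fold change 4.74), Klra4 (4.25) and Klra9 (3.93), receptor genes of a family whose similar members can share reads, and of Ncr1 (3.73). Klra8, Klra4 and Klra9 had 2 to 6 counts in the WT libraries and passed the filter only through Mek1/2-tKO. Ncr1 had 0.770 and 0.830 CPM in WT and 11.5 and 9.85 CPM in Mek1/2-tKO, and activated T cells can also express Eomes, Klrd1, Klrk1 and Cd244a of this list. Of the 7 gamma-delta T-cell markers 5 were tested and all 5 were higher, with sums of 4.77 to 6.98 against 167 to 185 CPM, led by Tcrg-C4 (log2 fold change 5.78), Trdc (5.12), Tcrg-C2 (4.65) and Tcrg-C1 (4.09). The remaining tested gamma-delta marker had 2 and 4 counts in WT and passed the filter only through Mek1/2-tKO.

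Lineages that are not killer cells showed the same direction. The 10 B-lineage markers were all higher (sums of 603 to 610 against 3571 to 3646 CPM), as were the 6 myeloid markers that could be tested of 10 (4.16 to 4.46 against 21.5 to 26.9 CPM) and the 5 mast cell and basophil markers that could be tested of 8 (at most 1.28 CPM in WT, at most 15.9 CPM in Mek1/2-tKO), while Mcpt4 and Tpsb2 of mast cells were at 0 in every library. Beside these, 19.3% of all tested genes were higher and 16.4% lower, with a median log2 fold change of 0.02. Adgre1, S100a8, S100a9, Ms4a2, Cpa3 and Mcpt8 had at most 6 counts in each WT library. They passed the filter only through the Mek1/2-tKO libraries, so that a higher call was the only one open to them. Fcrla (log2 fold change 6.17), Cd79b (3.73), Cd79a (3.43) and Bank1 (2.26) led the B-lineage markers. Of the myeloid markers, Lyz2 and S100a9 had log2 fold changes of 3.97 and 3.55, and Adgre1 (4.26 and 4.42 CPM in Mek1/2-tKO) and S100a8 (0.775 and 1.07 CPM) had no count in WT. Of the mast cell and basophil markers, Cpa3 and Kit had log2 fold changes of 4.59 and 3.54, and Ms4a2 (0.646 and 0.959 CPM in Mek1/2-tKO) had no count in WT. With Mek1/2-tKO replicate 2 left out, 3 mast cell and basophil markers were higher. Mcpt8, also of the mast cell and basophil list, lies on chromosome 14, 177 kb from Gzmb. It rose from 0.103 and 0.052 CPM in WT to 3.29 and 3.25 CPM in Mek1/2-tKO (log2 fold change 5.28, edgeR adjusted p = 1.75e-05). The part that other cell types had in the levels of the granule genes was not tested.

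Because these markers moved with the granule genes, ratios of both were taken within each library, a comparison chosen after the values were seen. Such ratios depend on gene length and are compared only across libraries. The CPM of Prf1 over the summed NK-cell markers was 0.710 and 0.817 in WT and 0.696 and 0.693 in Mek1/2-tKO, and that of Gzma was 0.430 and 0.523 against 0.362 and 0.341. For Gzmb the same ratio was 31.6 and 34.7 in WT and 17.6 and 17.3 in Mek1/2-tKO. The NK-cell sum follows its most abundant genes, some of which activated T cells can also express. Eomes alone gave 21.8 and 16.7 of 43.8 and 39.1 CPM in WT. In Mek1/2-tKO it gave 65.6 and 61.7 of 283 and 256 CPM. The median log2 fold change of the 13 markers was 3.54, against 1.73 for Eomes. Over the summed CD8 markers, Gzmb stood at 20.5 and 22.9 in WT and 20.9 and 20.7 in Mek1/2-tKO, whereas Prf1 went from 0.461 and 0.538 to 0.827 and 0.830. The ratio of Prf1 to the summed B-lineage markers, which are not killer-cell genes, overlapped between the genotypes, with 0.0515 and 0.0523 in WT and 0.0540 and 0.0498 in Mek1/2-tKO. As ratios of genotype means, the summed CD8 markers rose 3.57-fold, the B-lineage markers 5.95-fold, the NK-cell markers 6.51-fold, the mast cell and basophil markers 13.6-fold and the gamma-delta T-cell markers 29.9-fold, beside fold changes of 3.44 for Gzmb, 4.83 for Gzma, 5.94 for Prf1 and 8.79 for Gzmc. The differences between these folds were not tested, and a like fold does not tell which cells a transcript came from.

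**Figure D5:**
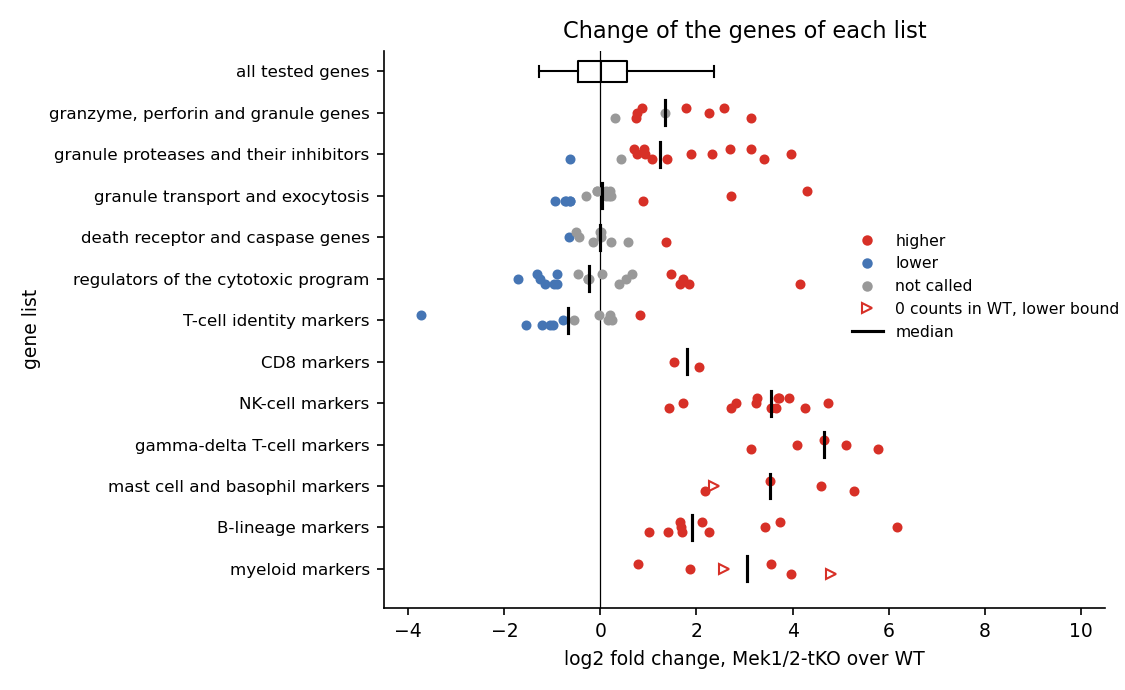
Log2 fold change of Mek1/2-tKO over WT for each tested gene of the lists, red where higher, blue where lower and gray where not called, with the median of a list as a black line, open triangles at the lower bound for genes with no count in WT, and a box for all tested genes (quartiles, whiskers at the 5th and 95th percentile). The granzyme, perforin and granule genes have a median of 1.34, near the granule proteases at 1.23, while transport and death receptor genes center near 0 and the NK-cell markers lie at 3.54.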

How the data were processed

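RNA of 2 WT and 2 Mek1/2-tKO samples was measured by stranded mRNA sequencing with paired reads of 150 nucleotides. The authors filtered the reads (Trimmomatic 0.36), aligned them to GRCm38, counted uniquely mapped reads per gene with featureCounts (Subread 1.5.1) and deposited raw counts with no normalization; the mapper is written as STRA in the methods, and the annotation release and strand setting are not given in the sources used here. Ensembl identifiers were matched to symbols for 54723 of 54752 genes.

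Groups were taken from the sample labels. In R 4.3.3, edgeR 4.0.16 was run on the counts with genotype as the only term, using TMM scaling, the filterByExpr filter, a robust quasi-likelihood fit and Benjamini-Hochberg adjustment over all 14330 tested genes, and the code was tested on simulated data. Summed granzyme CPM was compared by an exact permutation test. DESeq2 1.42.0, other scalings, filters and thresholds, a replicate block and leaving out each library were tried as alternatives. Replicates were not copies of each other (correlation across genes 0.993 in WT and 0.990 in Mek1/2-tKO). Floors cover counting error only, whereas standard errors and SDs include the spread between libraries. Exon overlap, shared stretches of transcripts and coding identity were read from GENCODE gene models on GRCm38, and promoter sequences from RefSeq on GRCm38.p6, where all 10 genes had a window (the first was used). No gene of the group shares exon bases with another gene.

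The genes, lists and tests were chosen with earlier results of these data known. Named were all 10 genes, the other granzymes, the targeted genes, the 4 called genes of each other list with the largest change and, for Gzmb, Prf1 and Srgn, the 3 genes of mean log2 CPM of at least 3 with the nearest profile on log2(CPM + 0.5); further genes of the lists were named after their values were seen. One transport gene of the lists, Vamp7, was not analysed here. A further listed gene enters the counts and medians without being named.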

Additional observations from a re-analysis of the deposited data

How the results depend on the processing

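The 9 tested genes kept their direction and, in 89 of 90 values, their side of the thresholds under DESeq2, scaling by its size factors or by library size alone, a looser and a stricter filter, the replicate block and without each library. The exception was Gzmm at 10 counts in every library (1.35). At a fold change of at least 2, 4 genes of the group were higher, as were 1725 of all genes, with 1040 lower; granule transport, granule protease and death receptor genes had 0 lower, regulators 4 lower and T-cell identity markers 0 higher. With at least 10 counts in every library, 0 other granzymes, 2 death receptor genes, 3 gamma-delta, 2 myeloid and 0 mast cell and basophil markers were higher. The granzymes and markers missing from these counts had a library with fewer than 10 counts. They were thus removed by the filter and not tested, and did not lose a call. At an adjusted p under 0.01, 1 other granzyme was higher. Library size alone gave 2 lower death receptor genes and a WT mean of 1446 for the summed granzyme CPM.

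Without 1 library, 1 to 2 other granzymes, 1 to 2 death receptor genes and 3 to 5 mast cell and basophil markers were higher, and 3 to 5 transport genes and 0 to 3 death receptor genes were lower. The causes of the shifts on leaving out a library were not tested. Replicate numbers did not pair the libraries (correlation of deviations -0.02), and with a replicate block 7 genes of the group were higher and 0 lower, with 2652 of all genes higher and 2300 lower. Genes near 3 counts, such as Gzmk, are limited by depth.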
